A study of Mus musculus with 6 samples.

Results

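Formative and primed state genes mark embryonic stem cells that are leaving the naive state. The 9 genes described here are Otx2, Pou3f1, Fgf5, Zic2, Zic5, Sox3, Sox4, Foxd3 and Car14. They were chosen by symbol from the 55401 genes of the count table, and each matched 1 Ensembl identifier. RNA was sequenced from V6.5 cells, an embryonic stem cell line from hybrid mouse embryos. There were 3 wild type (WT) libraries and 3 libraries of Cdh1-/- V6.5 cells, called knockout (KO) below, each set lettered A, B and C. SD is the standard deviation and SE the error of a fitted log2 ratio. Cdh1 encodes E-cadherin, the adhesion protein whose cytoplasmic tail binds beta-catenin, and the series asks how E-cadherin affects beta-catenin's transcriptional activity. Whether the knockout cells are 1 clone, how the cells were cultured and whether the letters stand for separate cultures are not given in the sources used here. If they do not, p-values measure only the spread between these samples, which may be technical.

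Pluripotent cells pass through a series of states. Naive cells resemble the epiblast before implantation, formative cells are competent to respond to lineage signals, and primed cells resemble the epiblast after implantation. The passage out of the naive state involves FGF signalling, and Otx2 and Pou3f1 (also called Oct6) act in it together with the pluripotency factor Oct4 at newly used enhancers. Fgf5, a secreted growth factor, is a classical marker of the epiblast after implantation. Zic2 and Zic5 encode zinc finger transcription factors, Sox3 and Sox4 encode HMG box transcription factors of the SoxB1 and SoxC groups, and Foxd3 encodes a forkhead factor needed in pluripotent cells and in the neural crest. Car14 encodes a carbonic anhydrase anchored in the cell membrane. Several of these genes also act in the developing nervous system.

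The libraries held between 18020719 and 23381942 counts. Levels are given as CPM, a gene's counts relative to the scaled size of its library. Changes are given as log2 ratios of knockout over WT, with FDR standing for the p-value, adjusted by the Benjamini-Hochberg method, of edgeR's quasi-likelihood test over all tested genes, and a gene was called where the FDR was under 0.05. Cdh1 itself, the check of the labels, had 559 ± 19.1 CPM in WT against 173 ± 9.05 CPM in knockout cells (SD, n = 3 each). Which part of Cdh1 was altered is not given in the sources used here. KO A stood apart from the other knockout libraries on the second principal component, at 32.7 against -9.70 in B and -18.6 in C. Results are therefore also given without KO A where that matters. The WT libraries were split on this component too, with WT C at -18.6 against 6.85 in WT A and 7.41 in WT B. All 5 markers of embryonic stem cells (Pou5f1, Sox2, Nanog, Sall4 and Dppa5a) were expressed, with a summed level between 2564 and 2831 CPM in WT and between 2576 and 3071 CPM in the knockout. None of the 5 passed an FDR of 0.05 in edgeR's quasi-likelihood test, while 1 had an unadjusted p under 0.05 and 1 was called by DESeq2 and 1 by limma-voom. Without KO A, Nanog was called higher (log2 ratio 0.43, FDR 0.00580). In the knockout, genes of chromosome 14 stood higher as a whole, at 1.45 to 1.47 times their WT level relative to other autosomes, and Otx2, Zic2 and Zic5 lie on that chromosome. Genes of chromosome 1 stood lower as a whole, at 0.80 to 0.82 times their WT level.

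The promoters of the members that were lower in the knockout are shown first, because the series concerns a co-activator of TCF and LEF factors, which bind DNA at promoters and enhancers. RefSeq start sites of the mouse build GRCm38.p6 were found for 6 of the 9 genes, at 9 sites in all. Pou3f1, Zic2 and Sox3 had no entry. For Otx2, with 4 start sites, the window farthest upstream is shown. Each sequence is the 250 bases before a start site, in the direction of the gene. Capitals mark a match to any of 4 motifs, searched on both strands.
Otx2, chr14:48667645-48667894, minus strand: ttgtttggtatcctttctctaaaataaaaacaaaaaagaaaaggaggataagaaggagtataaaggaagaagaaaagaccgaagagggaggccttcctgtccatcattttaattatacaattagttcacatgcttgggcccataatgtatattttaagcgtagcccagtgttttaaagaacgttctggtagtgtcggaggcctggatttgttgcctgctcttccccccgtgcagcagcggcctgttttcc
Zic5, chr14:122465659-122465908, minus strand: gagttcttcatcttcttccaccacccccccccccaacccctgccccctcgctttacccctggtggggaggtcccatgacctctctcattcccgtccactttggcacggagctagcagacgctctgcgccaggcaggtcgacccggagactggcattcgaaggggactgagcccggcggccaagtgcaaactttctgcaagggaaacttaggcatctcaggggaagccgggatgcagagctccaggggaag
Sox4, chr13:28953700-28953949, minus strand: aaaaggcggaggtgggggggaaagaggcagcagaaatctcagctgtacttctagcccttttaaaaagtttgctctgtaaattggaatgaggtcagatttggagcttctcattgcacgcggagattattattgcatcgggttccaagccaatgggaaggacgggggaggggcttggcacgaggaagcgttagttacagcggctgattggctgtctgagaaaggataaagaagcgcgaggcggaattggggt
Car14, chr3:95904686-95904935, minus strand: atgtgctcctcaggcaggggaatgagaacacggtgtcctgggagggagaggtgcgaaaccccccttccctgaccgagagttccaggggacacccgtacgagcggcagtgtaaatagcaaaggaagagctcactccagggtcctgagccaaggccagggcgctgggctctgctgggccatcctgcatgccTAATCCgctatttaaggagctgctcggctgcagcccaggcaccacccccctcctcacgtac
The TCF/LEF core was searched as CTTTGAT and as CTTTGTT, which differ at 1 base and cannot match at the same place. The POU octamer was searched as ATGCAAAT and the OTX site as TAATCC. Of the 32851 RefSeq windows of this length, 3.21% held CTTTGAT, 5.03% held CTTTGTT, 1.6% held ATGCAAAT and 6.25% held TAATCC. None of the 9 windows of the members held the first 3 motifs. The OTX site was present in 2 of the 9 windows, and in Car14 it begins 61 bases before the start site. The other match lies in an Otx2 window that is not shown, chr14:48665110-48665359, and begins 211 bases before its start site. All 250 bases of that window lie in annotated exons. Some Otx2 windows overlap each other, so the 9 windows are not all separate. These are matches of letters within 250 bases and show no binding. The Otx2 window had 42% G and C, against 62.4% for Zic5, 50.8% for Sox4, 62% for Car14 and a median of 52.4% over all windows.

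In knockout against WT cells, Otx2, Zic2, Sox4, Car14 and Zic5 fell and Foxd3 rose. Pou3f1 and Sox3 were lower in each knockout library than in each WT library but did not pass the test, and Fgf5 was too low to be tested. The filter on low counts thus kept 8 of 9 members, and 6 of these 8 passed, against 13.3% of all 17325 tested genes. Separately by direction, 5 members were called lower, against 5.71% of all tested genes, and 1 was called higher, against 7.60%. The median log2 ratio of the 8 tested members was -0.72, beside -0.01 for all tested genes. In 7 of the 8, all knockout libraries lay below all WT libraries, a pattern found for 15.0% of all tested genes, and 30.7% of all tested genes were separated in either direction. Without WT A, KO B or KO C, 3 members were called, all of them lower. The members were chosen with earlier results of these data known, so these shares describe them and do not test them. In bulk RNA, fewer cells that express a gene and less RNA per cell cannot be told apart.

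**Figure D1:**
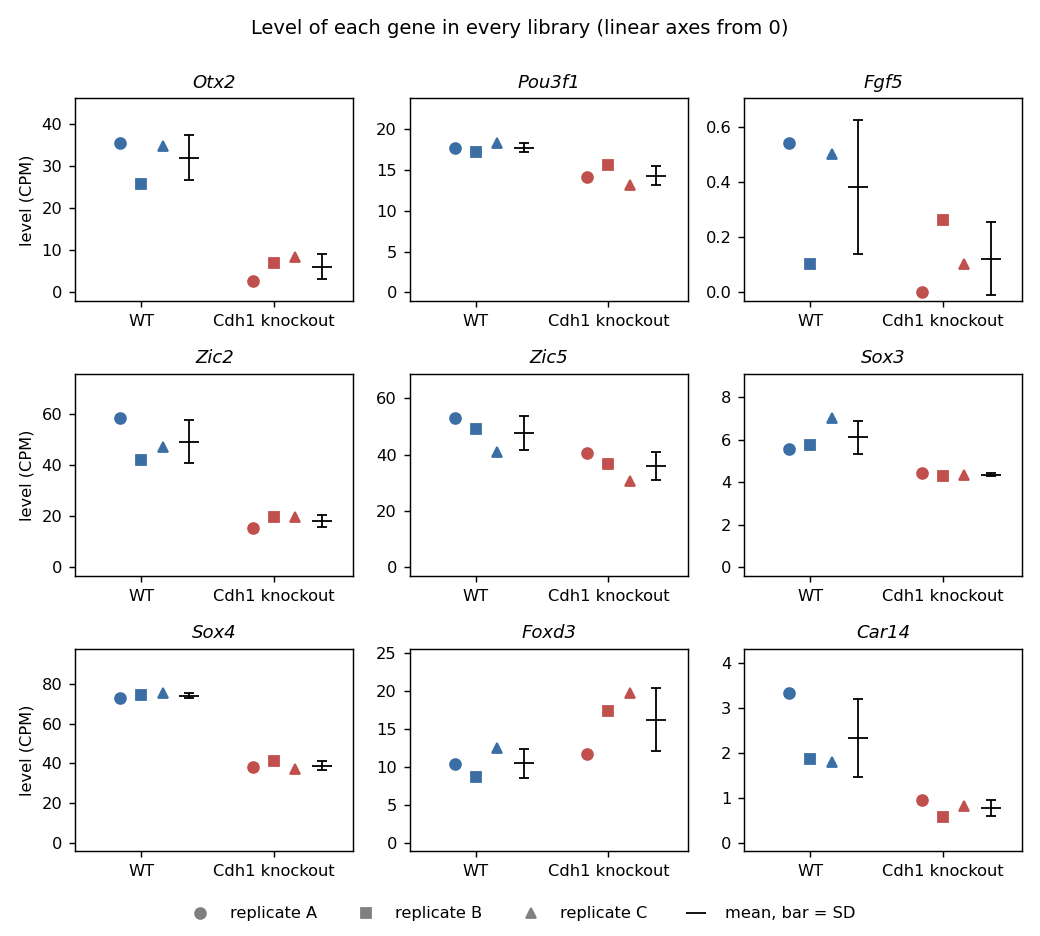
Level of each of the 9 genes in CPM (vertical axes, linear, each with its own range from 0) in the 3 WT (blue) and 3 knockout (red) libraries. Symbols mark the replicate, and black bars show mean and SD. Otx2 and Zic2 show wide gaps between the genotypes, Foxd3 overlaps, and Fgf5 reaches at most 0.540 CPM.

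Fgf5 is the only secreted signal among the members. Fgf5 (ENSMUSG00000029337.2, chromosome 5, 98254184 to 98277030, plus strand, GRCm38) had 12, 2 and 10 counts in libraries WT A, WT B and WT C and 0, 6 and 2 counts in libraries KO A, KO B and KO C. A level of 6 counts or fewer, which is 3 read pairs if both mates were counted, was not distinguished from 0, and that applied to WT B and to all knockout libraries. No fold is therefore given. The mean level was 0.380 CPM in WT against 0.121 CPM in knockout cells. With every gene that had a count kept, the log2 ratio was -1.53 with an FDR of 0.512. In 4 leave-one-out fits Fgf5 passed the filter, with FDR between 0.204 and 0.508. A difference was not detectable at this depth.

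Otx2, a homeobox transcription factor, had the largest change of the tested members. Otx2 (ENSMUSG00000021848.16) lies on the minus strand of chromosome 14 from 48657677 to 48673819. Its level was 35.3, 25.7 and 34.8 CPM in libraries WT A, WT B and WT C, and 2.76, 6.86 and 8.48 CPM in libraries KO A, KO B and KO C. The groups did not overlap, and KO A was the lowest. The mean fell from 31.9 ± 5.40 CPM to 6.03 ± 2.94 CPM (SD, n = 3 each), to 18.9% of WT. The log2 ratio was -2.39 with an SE of 0.27 and an FDR of 4.2e-05. Without KO A it was -2.06 with an FDR of 6.9e-08, and over the 6 leave-one-out fits it lay between -2.69 and -2.06. Of the exon bases of Otx2, 5.14% are shared with the opposite-strand transcript Otx2os1 and 5.61% with the same-strand transcript Gm49154.

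Pou3f1, a POU domain transcription factor, differed far less. Pou3f1 (ENSMUSG00000090125.3, chromosome 4, 124656807 to 124660655, plus strand) had 17.7, 17.3 and 18.3 CPM in libraries WT A, WT B and WT C and 14.1, 15.6 and 13.2 CPM in libraries KO A, KO B and KO C. All knockout libraries lay below all WT libraries. The log2 ratio was -0.31 (SE 0.13, FDR 0.155), with an unadjusted p of 0.037 and a 95% interval from -0.60 to -0.02. Pou3f1 was not called in any of the 6 leave-one-out fits. The interval of Otx2, from -2.97 to -1.82, did not overlap that of Pou3f1, and no test of the difference between these genes was run.

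The genes most like Otx2 and Pou3f1 were sought among 9776 other genes with a mean of at least 10 CPM, by the root mean square difference of log2 levels centred on each gene's mean over the 6 libraries. Nearest to Otx2 were Trh at 0.44, Slfn9 at 0.55 and Morc1 at 0.59 on the log2 scale. Trh, the precursor of thyrotropin-releasing hormone, had 99.4 ± 26.1 CPM in WT against 22.5 ± 4.72 CPM in knockout cells. Nearest to Pou3f1 were Rbm5 at 0.03, Traf3ip1 at 0.03 and Gm10020 at 0.04. Of these, Rbm5 was called lower in the knockout (log2 ratio -0.36, FDR 0.0147). Traf3ip1 (-0.27, FDR 0.126) and Gm10020 (-0.31, FDR 0.0786) were not called. Pou3f1 and its 3 nearest genes varied little over the libraries, so distances are not compared between Otx2 and Pou3f1.

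Zic2 and Zic5 are neighbours on chromosome 14, and their falls differed in size. Zic2 (ENSMUSG00000061524.8, 122475435 to 122479852, plus strand) had 58.4, 42.0 and 47.3 CPM in libraries WT A, WT B and WT C and 15.5, 19.6 and 19.6 CPM in libraries KO A, KO B and KO C. The genotypes were far apart, and its mean fell from 49.2 ± 8.39 CPM to 18.2 ± 2.35 CPM, to 37.1% of WT (log2 ratio -1.43, SE 0.14, FDR 1.4e-05). Zic5 (ENSMUSG00000041703.7, 122456795 to 122465677, minus strand) had 52.8, 49.0 and 41.0 CPM in WT and 40.5, 36.8 and 30.6 CPM in the knockout. Its groups did not overlap but nearly met, at 41.0 CPM in WT C and 40.5 CPM in KO A. The log2 ratio of Zic5 was -0.41 (SE 0.13, FDR 0.0488), and it lost its call in 4 of the 6 leave-one-out fits. Its FDR was 0.226 without WT A, 0.155 without WT B, 0.120 without KO B and 0.216 without KO C.

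The ratio of Zic2 to Zic5 counts within a library does not depend on scaling between libraries. It was 1.11, 0.858 and 1.15 in libraries WT A, WT B and WT C and 0.384, 0.533 and 0.639 in libraries KO A, KO B and KO C. All knockout ratios lay below all WT ratios, with a mean difference of -1.02 on the log2 scale. The two-sided exact permutation p was 0.1, the smallest that 3 libraries against 3 can give.

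Chromosome 14 as a whole was higher in the knockout, so the fall of its members was set against it. Of 622 tested genes of chromosome 14, 310 were called higher and 10 lower, with a median log2 ratio of 0.53. Otx2, Zic2 and Zic5 were among those 10, and by log2 ratio Otx2 ranked 3 from the lowest, Zic2 ranked 8 and Zic5 ranked 45. With each library's median of chromosomes 1 and 14 removed, the log2 ratio was -2.93 for Otx2 (FDR 9.8e-06), -1.97 for Zic2 (FDR 1.9e-06) and -0.95 for Zic5 (FDR 0.000201). Under this setting Foxd3, on chromosome 4, had an FDR of 0.0602.

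**Figure D2:**
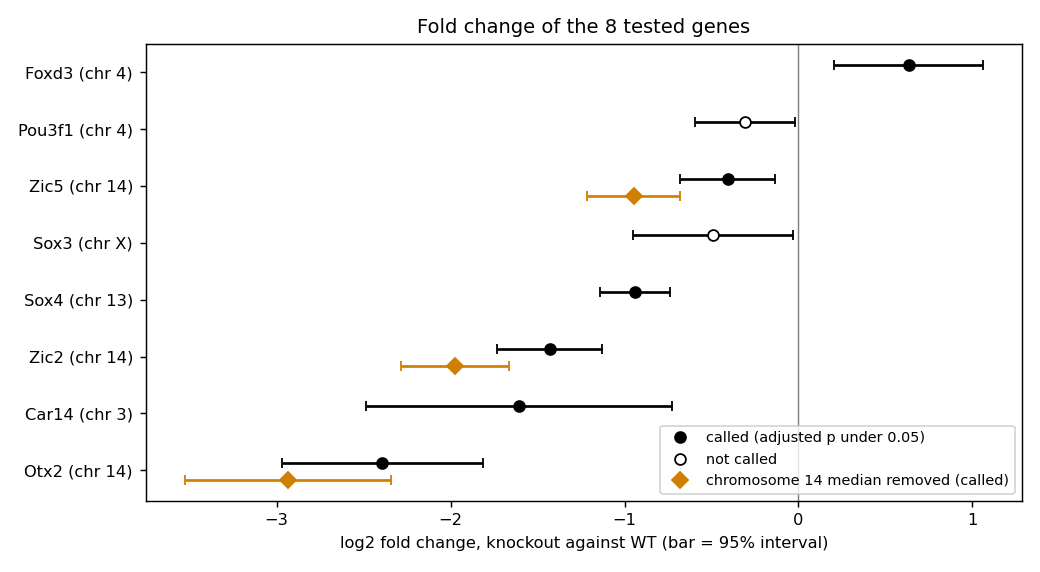
Log2 ratio of knockout against WT (horizontal axis) with its 95% interval for the 8 tested genes. Filled symbols passed an FDR of 0.05, and orange diamonds give the 3 genes of chromosome 14 after its median was removed. The diamonds lie to the left of the black circles, at -2.93 for Otx2, -1.97 for Zic2 and -0.95 for Zic5.

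Genes beside Otx2 and Zic2 were examined to see how far the lower counts extended. Both windows are to be read beside the whole chromosome, where 310 of 622 tested genes were called higher and 10 lower. The median log2 ratio there was 0.53, so higher neighbours are not particular to these windows. Within 1 Mb of Otx2, 11 other genes were tested, of which 6 were called higher and 0 lower, with log2 ratios from -0.88 to 1.01 and a median of 0.34. Tmem260, the nearest protein-coding gene among them, rose (log2 ratio 0.77, FDR 0.00195). Within 1 Mb of Zic2, 19 other genes were tested, of which 7 were called higher and 2 lower. The 2 lower genes were Zic5 and 2610035F20Rik, a noncoding transcript whose start lies 236 bases from that of Zic2 on the opposite strand. It had 108, 74 and 64 counts in libraries WT A, WT B and WT C and 28, 24 and 23 counts in libraries KO A, KO B and KO C, and it fell from 3.93 ± 0.847 CPM to 1.25 ± 0.262 CPM (log2 ratio -1.66, FDR 0.00289). Pcca, 54.5 kb from Zic2, rose (log2 ratio 0.65, FDR 0.00173).

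**Figure D3:**
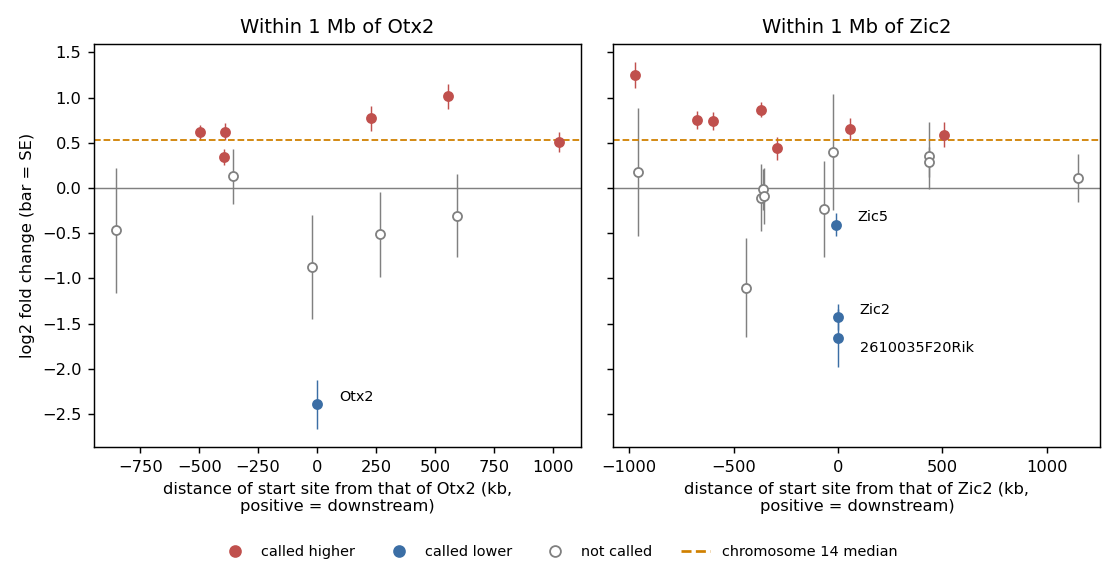
Log2 ratio with its SE (vertical axis) of all tested genes within 1 Mb of Otx2 (left) and Zic2 (right), against the distance of their start sites in kb. The dashed line is the median of chromosome 14, at 0.53. Otx2 at -2.39 is the only called lower gene in its window, and Zic2, Zic5 and 2610035F20Rik are the only ones in the other.

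The SOX factors of the list differed in the certainty of their change. Sox4 (ENSMUSG00000076431.4, chromosome 13, 28948919 to 28953713, minus strand) had 72.9, 74.3 and 75.2 CPM in libraries WT A, WT B and WT C and 37.9, 41.2 and 36.8 CPM in libraries KO A, KO B and KO C. Replicates lay close together within each genotype and the genotypes were far apart. Its mean fell from 74.1 ± 1.19 CPM to 38.6 ± 2.27 CPM, to 52.1% of WT (log2 ratio -0.94, SE 0.09, FDR 1.5e-05). Over the 6 leave-one-out fits it lay between -0.98 and -0.90. Sox3 (ENSMUSG00000045179.9, X chromosome, 60891366 to 60893430, minus strand) had 5.58, 5.76 and 7.00 CPM in WT and 4.42, 4.28 and 4.34 CPM in the knockout. The groups did not overlap, but the log2 ratio of -0.49 (SE 0.22, 95% interval -0.95 to -0.03) did not pass, with an FDR of 0.159 and an unadjusted p of 0.0386.

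Foxd3 was the member called higher. Foxd3 (ENSMUSG00000067261.4, chromosome 4, 99656299 to 99658622, plus strand) had 10.4, 8.64 and 12.5 CPM in libraries WT A, WT B and WT C and 11.7, 17.3 and 19.7 CPM in libraries KO A, KO B and KO C. KO A lay within the WT range. The mean rose from 10.5 ± 1.91 CPM to 16.2 ± 4.12 CPM (log2 ratio 0.63, SE 0.20, FDR 0.0494). This call was at the edge of the threshold. It was lost with RLE scaling (FDR 0.0507), upper quartile scaling (0.0656), library totals (0.0628) and limma-voom (0.0604). It was also lost without WT A (FDR 0.148), WT B (0.201), KO B (0.146) or KO C (0.208). Without KO A the log2 ratio was 0.82 with an FDR of 0.00206.

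Car14 was the one enzyme of the list and was expressed at a low level. Car14 (ENSMUSG00000038526.14, chromosome 3, 95897768 to 95904691, minus strand) had 74, 37 and 36 counts in libraries WT A, WT B and WT C and 17, 13 and 16 counts in libraries KO A, KO B and KO C. WT A was higher than the other WT libraries, and all knockout libraries lay below WT. The mean fell from 2.33 ± 0.864 CPM to 0.772 ± 0.188 CPM (log2 ratio -1.60, SE 0.41, FDR 0.0174). The FDR was 0.136 without WT A, 0.0840 without KO B and 0.0555 without KO C. On the opposite strand, Aph1a covers 26% of the exon bases of Car14, and it had 22.5 ± 1.85 CPM in WT against 25.1 ± 2.33 CPM in knockout cells (log2 ratio 0.16, FDR 0.471). How strand was treated in counting is not given in the sources used here, so reads of these 2 genes may be mixed.

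**Figure D4:**
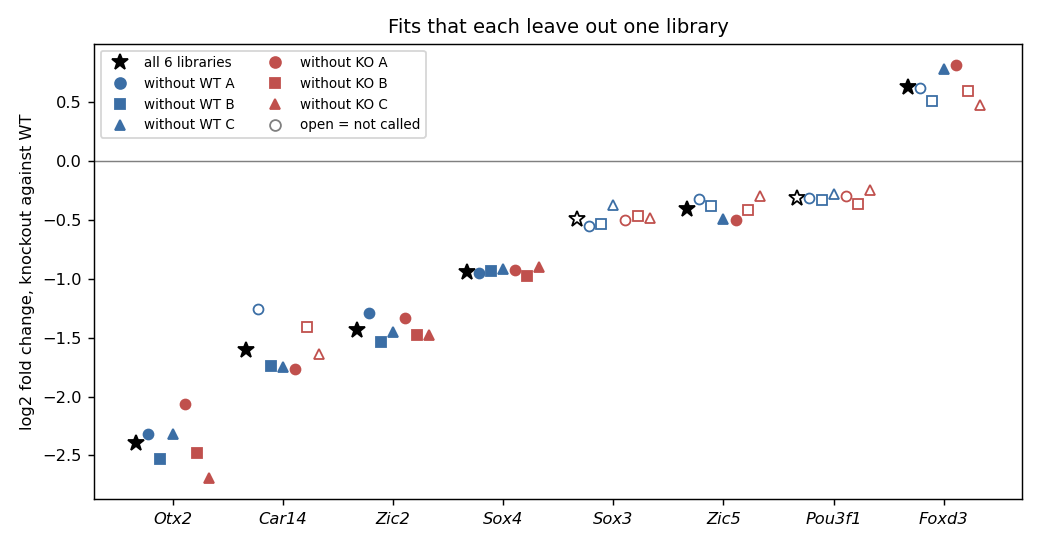
Log2 ratio (vertical axis) of the 8 tested genes with all 6 libraries (stars) and in the leave-one-out fits (blue, a WT library; red, a knockout library). Filled symbols passed an FDR of 0.05. Otx2, Zic2 and Sox4 are filled throughout, Sox3 and Pou3f1 are open throughout, and Car14, Zic5 and Foxd3 are mixed.

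Levels per length allow the members to be ranked against each other. In WT, Zic2 was highest at 20.2 ± 3.44 CPM per kilobase of exon, followed by Sox4 at 15.5 ± 0.248, Otx2 at 10.7 ± 1.80 and Zic5 at 9.99 ± 1.26. Otx2 and Zic5 did not differ beyond their spread. Pou3f1 at 4.62 ± 0.134 and Foxd3 at 4.51 ± 0.822 did not differ beyond theirs, and Sox3, Car14 and Fgf5 followed. In the knockout, Sox4 at 8.06 ± 0.473, Zic5 at 7.54 ± 1.04, Zic2 at 7.48 ± 0.962 and Foxd3 at 6.98 ± 1.77 CPM per kilobase overlapped in their spread. Otx2 moved from rank 3 to rank 7 of the 9, at 2.01 ± 0.983 CPM per kilobase. Its WT level per length was above 65.7% of all tested genes and its knockout level above 33.4%. The summed level of the 9 members lay between 225 and 257 CPM in WT libraries and between 128 and 143 CPM in knockout libraries.

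Other genes of the formative and primed states moved in both directions. Of 21 further genes listed, 20 were tested, and 8 were called lower and 4 higher, 60% of those tested against 13.3% of all genes. Their median log2 ratio was -0.19. Without KO B, 3 were called higher and 4 lower. The 5 largest called changes included Lef1, which encodes a TCF/LEF factor (-3.42), Cdh2, the gene of N-cadherin (-1.32), and Grhl2, an epithelial transcription factor (-0.79, FDR 0.0325). Grhl2 lost its call in 5 of the 6 leave-one-out fits, with an FDR of 0.135 without WT A, 0.0683 without WT B, 0.0876 without WT C, 0.131 without KO B and 0.0925 without KO C. Of the exon bases of Lef1, 34.5% overlap an opposite-strand gene. Fst, which encodes the activin antagonist follistatin, rose from 1.86 ± 0.222 CPM to 7.17 ± 2.37 CPM (log2 ratio 1.95, FDR 0.000398). Tcf15, a basic helix-loop-helix factor of cells preparing to leave the naive state, rose from 52.3 ± 8.89 CPM to 117 ± 35.6 CPM (log2 ratio 1.16, FDR 0.000724).

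All 3 listed genes of the Dnmt3 family, the de novo DNA methylation machinery, were called lower and are named after their values were seen. Dnmt3a fell from 213 ± 10.6 CPM to 143 ± 19.3 CPM (log2 ratio -0.57, FDR 0.00147), and Dnmt3b fell from 95.4 ± 4.60 CPM to 71.9 ± 0.839 CPM (log2 ratio -0.41, FDR 0.00511). Dnmt3l, the cofactor without catalytic activity, had a log2 ratio of -0.57 (FDR 0.0232) and lost its call without WT A (0.109), WT C (0.128) or KO B (0.123). The most abundant genes of the list that were not called were Etv5, with 203 ± 16.8 CPM in WT against 214 ± 42.4 CPM in knockout cells, and Utf1, with 194 ± 17.2 CPM and 211 ± 24.1 CPM. Cer1 had 0 counts in every library.

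Of 21 relatives from the same gene families, some of which other lists hold too, 16 were tested. Their median log2 ratio was 0.44. Of those tested, 37.5% were called, 4 higher and 2 lower, against 13.3% of all tested genes. These counts changed with the library left out: 0 were called higher and 1 lower without WT A or without WT B, 1 higher and 1 lower without KO B, 0 higher and 2 lower without KO C, and 5 higher and 2 lower without KO A. Calls over all genes also varied in the leave-one-out fits, between 1374 and 2784, against 2307 with all libraries. Fgf4, also called higher, lost its call without WT A (0.133), WT B (0.155), KO B (0.0982) or KO C (0.102). Sox12 and Sox11, the other SoxC genes, were lower like Sox4, with log2 ratios of -0.50 (FDR 0.00426) and -0.45 (FDR 0.0136). The Sox11 call was lost without WT A (0.0584), WT B (0.0839) or KO B (0.0595). Otx1, the relative of Otx2, was counted at 0.713 ± 0.0852 CPM in WT against 1.97 ± 0.712 CPM in knockout cells, and its call (log2 ratio 1.46, FDR 0.0332) was lost in 4 of the 6 leave-one-out fits. Its FDR was 0.118 without WT A, 0.105 without WT B, 0.0695 without WT C and 0.184 without KO C. Pou3f2, a relative of Pou3f1, and Car2, a relative of Car14, were called higher at 2.11 (FDR 0.0409) and 0.67 (FDR 0.0178). Of the leave-one-out fits, Pou3f2 kept its call only without WT C and Car2 only without KO A, with FDR up to 0.189 and 0.0981. Among SoxB1 genes, Sox2 had 545 ± 31.9 CPM in WT against 535 ± 37.0 CPM in knockout cells (log2 ratio -0.03, FDR 0.892). Sox1, the other SoxB1 relative, had 24.5 ± 3.78 CPM in WT against 32.7 ± 12.9 CPM in knockout cells (log2 ratio 0.42, FDR 0.265), and without KO A its log2 ratio was 0.72 with an FDR of 0.000646.

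Naive genes are the counterpart of the members. Of 15 naive genes, all were tested, and 5 were called higher and 2 lower. These were 46.7% of those tested, against 13.3% of all tested genes. The median log2 ratio was 0.29. Klf4 (1.12), Gbx2 (0.86), Klf5 (0.79) and Tfcp2l1 (0.69) were among the higher ones. The lower ones were Dppa3 (-1.43) and Klf2 (-0.60, FDR 0.00144), and both kept their calls in every leave-one-out fit. Esrrb, with 600 ± 18.3 CPM in WT against 641 ± 79.0 CPM in knockout cells, and Nanog, with 445 ± 68.0 CPM and 526 ± 131 CPM, were not called. Without KO A, Nanog was called higher at 0.43 (FDR 0.00580), and so were Tbx3, Zfp42, Nr0b1 and Prdm14. Klf5 lies on chromosome 14 and had a log2 ratio of 0.25 (FDR 0.429) once the chromosome median was removed, and an FDR of 0.0684 without WT B. Tfcp2l1, Gbx2, Prdm14 and Nr5a2 lie on chromosome 1. With its median removed, their log2 ratios were 1.01, 1.17, 0.57 and 0.02. Prdm14 had a log2 ratio of 0.26 (FDR 0.293) before this removal and an FDR of 0.0229 after it, and Nr5a2 had -0.29 before it. Of the exon bases of Gbx2, 32.3% overlap an opposite-strand gene, and its call was lost without WT A (0.123), WT B (0.130), KO B (0.0918) or KO C (0.130). KO A had the lowest level of the knockout libraries in 14 of the 15 naive genes, against 4 of the 9 members. Without WT B, 2 naive genes were called higher and 2 lower. Without KO A, 10 naive genes were called higher and 2 lower, while 5 members were called lower and 1 higher as before.

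All 9 primitive endoderm markers were called higher, against 7.60% of all tested genes. Their median log2 ratio was 1.70. Their summed level lay between 285 and 394 CPM in WT and between 820 and 1516 CPM in the knockout. DESeq2 and limma-voom each called 8 of them, and 7 were called without WT A, WT B, WT C or KO C. Dab2 was not called without WT A (0.155), WT B (0.0545), WT C (0.0830), KO B (0.0635) or KO C (0.188). Gata4 and Sox7 lie on chromosome 14, and their log2 ratios were 1.16 and 1.64 with its median removed. Sox17 lies on chromosome 1, and its log2 ratio was 2.15, or 2.46 with the median of that chromosome removed. Sox7, Sox17, Foxa2, Col4a1 and Gata4 had the largest changes, Foxa2 with at most 6 counts in any WT library and at least 3.71-fold higher. Foxa2 was not called without WT A (0.108), WT B (0.0958), WT C (0.112) or KO C (0.180). Of 9 neural progenitor markers, 5 were tested and 2 were called lower, Pax6 (log2 ratio -3.14) and Nes (-0.88). These were 40% of those tested, against 5.71% of all tested genes called lower. The summed level was 209 to 250 CPM in WT and 175 to 202 CPM in the knockout. Neurog2 and Dcx stayed at or below 6 counts in every library, and Msi1, Tubb3 and Sox1 were not called. Sox1 had a log2 ratio of 0.42 with all libraries, and without KO A it was called higher at 0.72 (FDR 0.000646). Of 7 neural crest markers, 6 were tested and 2 were called lower, Tfap2a (-1.99) and Ets1 (-1.07). That was 33.3% of those tested, against 5.71% of all tested genes called lower. Their summed level was 55.2 to 68.0 CPM in WT and 54.2 to 63.6 CPM in the knockout. The part of these cell types in the members' changes was not tested.

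Of 6 trophoblast markers, 5 were tested and 1 was called lower, Tfap2c (log2 ratio -1.06). That was 20% of those tested, against 5.71% of all tested genes called lower. The markers had a summed level of 103 to 112 CPM in WT and 46.6 to 62.6 CPM in the knockout. Tfap2c made up most of this sum, and its mean fell from 96.2 ± 2.60 CPM to 46.2 ± 7.66 CPM. The lower sum is therefore mainly that of a single gene. Cdx2 (log2 ratio -0.81), Hand1 (-0.64), Gata3 (-0.25) and Ascl2 (0.10) were not called. Elf5 stayed at or below 6 counts in every library. Of 9 fibroblast markers, 5 were tested and 1 was called lower, Col1a1 (-1.48). This was 20% of those tested, against 5.71% of all tested genes called lower. The summed level was 27.3 to 44.8 CPM in WT and 19.9 to 32.2 CPM in the knockout. Without KO A, 3 fibroblast markers were called lower. Lum was at or below 6 counts and S100a4 at 0 in every library. The part of these markers in the results was not tested.

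**Figure D5:**
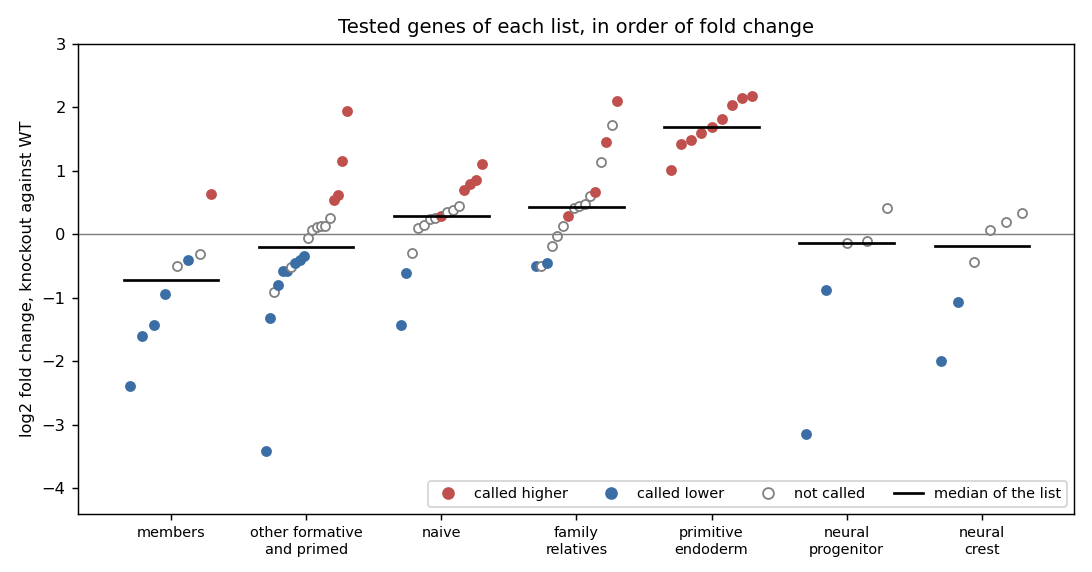
Log2 ratio (vertical axis) of each tested gene of 7 lists, in order of size within each list. Red and blue points were called higher and lower, open points were not called, and bars are medians. The median is -0.72 for the members, -0.19 for other formative and primed genes, 0.29 for naive genes and 1.70 for primitive endoderm markers.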

How the data were processed

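RNA of 6 libraries was sequenced from total RNA with a directional kit, per the labels' protocols. Raw counts for each gene, with its exon length, were deposited by the authors in a single file. The submitters' processing notes name cutadapt 2.10, STAR 2.7.5b, featureCounts 2.0.1 and the build GRCm38. The strand setting and whether both mates were counted are not given in the sources used here. Among counts of 1 to 10, between 78.1% and 83.1% were even, so 6 counts served as the floor. Floors cover counting error only.

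Symbols came from GENCODE M21, with 54349 of 55401 identifiers equal in version and 55141 genes given a symbol. Genes were filtered with filterByExpr (smallest count 10, smallest total 15), which left 17325, scaled by TMM and tested with edgeR 4.0.16 in R 4.3.3 (glmQLFit and glmQLFTest, genotype as the only term). P-values were adjusted by Benjamini-Hochberg over all tested genes and a gene was called under 0.05. Intervals use the SE from the F statistic. The procedure was tested on simulated data. Members and gene lists were chosen with earlier results of these data known. From each other list, up to 5 called genes with the largest changes and up to 2 abundant genes that were not called are named. Some further genes, such as Klf2, are named as well. Chromosome medians used genes of at least 100 mean counts. Alternatives were other scaling factors, filters, DESeq2 1.42.0, limma 3.58.1 with voom, glmTreat, a replicate block, counts divided by 2, chromosome medians removed and each library left out. The letters A, B and C were not treated as pairs.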

Additional observations from a re-analysis of the deposited data

How the results depend on the processing

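Otx2, Zic2 and Sox4 kept their direction and their call in all 18 alternatives, and Pou3f1 and Sox3 stayed uncalled in all 18. Foxd3 lost its call in 12, Zic5 in 6 and Car14 in 5, and no tested member changed direction in any. A fold threshold of 1.5 with glmTreat gave 3 called members, 4 other formative and primed genes, 2 naive genes and 355 genes in all. An FDR under 0.01 gave 3 members, 7 other formative and primed genes and 1242 genes in all. Keeping every gene with a count gave 11 naive genes. Over the leave-one-out fits, the called members numbered 3 to 6, other formative and primed genes 7 to 12, naive genes 4 to 12 and all genes 1374 to 2784. Without WT A, KO B or KO C, 3 members were called. Deviations of same-lettered libraries from their group means correlated at 0.14 for A, -0.03 for B and 0.23 for C across genes. The libraries lettered A and those lettered C correlated best with each other, and those lettered B did not. Each deviation is taken from a mean of 3 libraries, so these values cannot tell whether the letters pair the libraries. With the letter as a replicate block, 6 members, 12 other formative and primed genes, 8 naive genes and 2686 genes in all were called, and not every library correlated best with its own letter. Depth limits Fgf5, at 0 to 12 counts per library, and Car14, at 13 to 74.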

Other observations

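FGF receptors and response genes were also listed, because FGF signalling accompanies the passage out of the naive state. Of 10 listed genes, all tested, 3 were called higher and 0 lower in edgeR's quasi-likelihood test, and 3 had an unadjusted p under 0.05. The called genes were 30% of the list, against 7.60% of all tested genes called higher. DESeq2 and limma-voom also called 3 higher and 0 lower. The median log2 ratio was 0.26 in edgeR's fit and 0.20 in that of limma-voom. Fgfr3, a receptor gene, rose from 12.5 ± 1.52 CPM to 22.9 ± 4.39 CPM (log2 ratio 0.88, FDR 0.00182). Etv4, an ETS factor induced by FGF signalling, rose from 81.9 ± 11.8 CPM to 126 ± 13.7 CPM (log2 ratio 0.63, FDR 0.00175). Spry2, a feedback inhibitor on chromosome 14, had a log2 ratio of 0.50 (FDR 0.0374), and -0.04 (FDR 0.912) with the chromosome median removed. Its FDR was 0.148 without WT A, 0.184 without WT B, 0.164 without KO B and 0.162 without KO C, and Spry2 was also lost under another scaling. Etv5 and Fgfr1, the most abundant of the others, had log2 ratios of 0.08 and 0.13 and were not called. Dusp6 (-0.02), Egr1 (-0.26), Spry4 (0.29), Fgfr2 (0.35) and Fgfr4 (0.24) were not called either. Without KO A, Spry4 was called higher at 0.63 (FDR 0.00189). Etv4 and Etv5 also belong to the other formative and primed genes above. Whether FGF signalling differed was not tested.

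The transcripts that overlap exons of Otx2 and Pou3f1 had between 0 and 13 counts per library. Otx2os1, on the strand opposite to Otx2, had 13, 1 and 11 counts in libraries WT A, WT B and WT C and 0, 1 and 6 counts in libraries KO A, KO B and KO C. Gm49154, on the same strand as Otx2, had 2, 4 and 10 counts in WT and 0 in each knockout library. Gm2164, opposite to Pou3f1, had 0 counts in each WT library and 8, 4 and 1 counts in libraries KO A, KO B and KO C. None of these 3 was tested, and Pou3f1 itself had between 256 and 394 counts per library.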
